A study of Malus domestica with 6 samples.

Results

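The 4 genes described here are annotated as an ACC oxidase, the enzyme that makes ethylene, and as 3 genes of ethylene response. The first is MD15G1205100 (ACC oxidase 1 in the study's annotation, chromosome 15). The others are MD06G1051900 (ethylene responsive element binding factor 5, here ERF5, chromosome 6), MD03G1194300 (ethylene response factor 7, here ERF7, chromosome 3) and MD13G1163300 (ethylene-responsive element binding protein, here EBP, chromosome 13). They were picked by ID out of 52311 genes, and earlier results of these same libraries, in which their estimated read counts differed between flesh types, were known when they were picked. Their difference between flesh types is therefore given as a description, with no test of it.

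RNA was sequenced from the mesocarp, the edible flesh, of cv. 'R201', a red-flesh apple in which part of the flesh loses its colour as the fruit grows. Red flesh (RF) and white flesh (WF) of the same untreated fruits were compared at 84 days after full bloom, with 3 libraries of each type, lettered A to C. The letters stand for fruits of different trees of 1 cultivar, which the labels call semi-biological replicates, and an RF and a WF library of the same letter were taken as a pair. According to the study, RF was taken from the outer and WF from the inner cortex, so colour and depth in the fruit cannot be told apart.

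Ethylene is the gaseous hormone that drives ripening in climacteric fruits such as apple. Plants make it from methionine through S-adenosylmethionine and ACC. ACC synthase forms ACC, and ACC oxidase turns ACC into ethylene. The signal passes from membrane receptors to the nucleus, where it ends in part in the ethylene response factors (ERFs), transcription factors with an AP2-type DNA-binding domain. In Arabidopsis, ERF5 is known as an activator of transcription, ERF7 and ERF4 as repressors, and EBP as a member of the ERF group whose stability depends on oxygen. The apple genes carry these names by sequence similarity, and their own roles were not measured.

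The libraries held 25536185 to 26050906 estimated reads each. MdGSTU22 (MD17G1272100), a glutathione S-transferase that the study links to anthocyanin transport, had 315 to 378 TPM in WF and 1406 to 1757 in RF. Every RF library thus lay above every WF library, as labelled. The study singled this gene out for its difference between these same samples, so this is not an independent check of the labels. TPM, an estimate of transcript number scaled to the same total in every library, is the level of a gene per length. Of 24 genes of green tissue (chlorophyll-binding, photosystem and Rubisco genes), 21 were called higher in RF and 0 lower, where 6.08% and 4.68% of all genes tested were. Their summed level was 1700 to 1992 TPM in WF and 2882 to 2934 TPM in RF. Of 5 genes of epidermis and cuticle, 4 were tested and all 4 called higher, and their summed level was 19.5 to 23.2 TPM in WF and 37.99 to 67.8 TPM in RF, highest in RF library A. The fifth, a wax ester synthase-like gene (MD02G1104100), was listed at 0 in WF libraries A and C. Of 5 xylem or phloem genes, 3 were called higher and 2 lower, and their summed level was 854 to 1027 TPM in WF and 1264 to 1446 TPM in RF. These markers came from the study's list of called genes, so their direction is not independent evidence, and their part in the differences of the ethylene genes was not tested. In such bulk samples fewer cells of a type and less RNA per cell cannot be told apart.

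The levels of the 4 genes were far apart. By TPM, EBP was the highest, followed by ERF7, ACC oxidase and ERF5 (MD06G1051900). With 2 further genes described as ethylene genes, a second ERF5 (MD04G1058200) and an ERF4 (MD10G1290400), the order was EBP, ERF7, the second ERF5, ACC oxidase, ERF4 and ERF5, and it was the same in 6 of 6 libraries. EBP lay above 96.7% to 98.0% of the genes with a TPM above 0 in its library, and ERF7 above 91.6% to 95.8%. ACC oxidase lay above 57.7% to 75.8% of these genes and ERF5 above 31.3% to 51.2%. The second ERF5 and ACC oxidase were neighbours in this order whose ranges overlapped in RF, at 18.1 to 26.99 TPM and 16.4 to 21.1 TPM. In WF they did not overlap, at 15.2 to 15.6 TPM and 9.26 to 11.97 TPM.

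By edgeR's quasi-likelihood test at an adjusted p under 0.05, ACC oxidase and ERF5 were called higher and ERF7 and EBP lower in RF. All 4 had passed the expression filter. Of the 28610 genes tested, 6.08% were called higher and 4.68% lower, 10.8% in all, or 10.4% and 8.39%, 18.8% in all, with the letter as a replicate block. Since the genes were picked knowing such calls, these counts are a description and nothing is read from them. The same holds where the groups of a gene are said below not to overlap. The share of all tested genes without overlap was not counted.

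**Figure D1:**
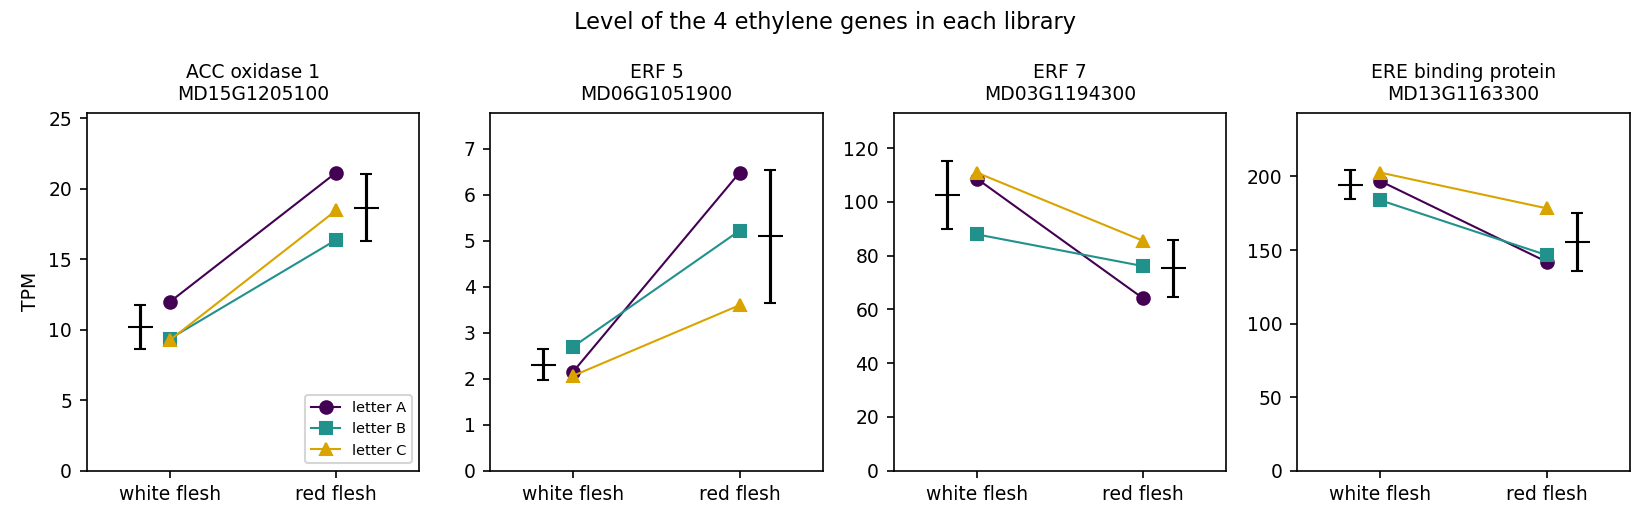
TPM of the 4 genes, EBP under the name ERE binding protein (vertical axes from 0, 1 scale per gene) in WF and RF, with a line joining libraries of the same letter and, beside the points, the mean with its SD over 3 libraries. ACC oxidase and ERF5 lie higher in all 3 RF libraries, at 16.4 to 21.1 and 3.600 to 6.48 TPM, and ERF7 and EBP lower, at 64.1 to 85.5 and 142 to 178 TPM.

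ACC oxidase (MD15G1205100) is named after the enzyme of the last step of ethylene synthesis. It had 306, 239 and 240 estimated reads in WF libraries A, B and C, and 529, 412 and 472 in RF libraries A, B and C. In TPM these were 11.97, 9.36 and 9.26 in WF and 21.1, 16.4 and 18.5 in RF. The groups did not overlap, and library A was the highest of its group in both flesh types. Relative to the WF library of the same letter, the RF level in CPM (counts relative to library size, as scaled by the TMM method) was 1.80-fold in A, 1.74-fold in B and 1.97-fold in C. The 3 paired ratios thus stayed close together, with a mean of 0.88 ± 0.09 on the log2 scale (SD, n = 3). The fitted log2 fold change was 0.87 (SE 0.12). Of the 1740 genes called higher in RF, 27.3% had a larger fold change.

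ERF5 (MD06G1051900), named after an Arabidopsis activator, was the least abundant of the 4. It had 35, 44 and 34 estimated reads in WF libraries A, B and C and 103, 84 and 58 in RF. Its level was 2.16, 2.698 and 2.07 TPM in WF and 6.48, 5.22 and 3.600 TPM in RF. The groups did not overlap, but the RF libraries were spread widely, with A high and C closest to WF. The ratio of RF to WF in CPM was 3.07 in A, 1.92 in B and 1.71 in C. In WF the SD over libraries was 5.51 reads, where counting alone gives 6.14 reads at that mean. In RF the SD was 22.6 reads against a counting SD of 9.04. The fitted log2 fold change was 1.14 (SE 0.24), and it was 0.92 without RF library A, where the gene was no longer called.

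ERF7 (MD03G1194300), named after an Arabidopsis repressor, was lower in RF. It had 1041, 856 and 1078 estimated reads in WF libraries A, B and C, and 602, 733 and 803 in RF. The levels were 108.6, 87.9 and 110.9 TPM in WF and 64.1, 76.1 and 85.5 TPM in RF. The groups did not overlap, although RF library C and WF library B lay next to each other. The RF level in CPM was 0.603 of the WF level in letter A, 0.863 in B and 0.747 in C, so the difference in A was the largest and that in B the smallest. The fitted log2 fold change was -0.45 (SE 0.10), and -0.36 without RF library A, where the gene was no longer called.

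EBP (MD13G1163300), the most abundant of the 4, showed the smallest relative difference. It had 3555, 3330.4 and 3709.9 estimated reads in WF and 2510.3, 2618 and 3203.9 in RF libraries A, B and C. The levels were 197, 184 and 203 TPM in WF and 142, 147 and 178 TPM in RF. RF library C came close to WF, at 123.8 CPM against 128.7 CPM in WF library B, and RF libraries A and B stood together below it. The paired ratio in CPM was 0.736 in A, 0.792 in B and 0.866 in C. The fitted log2 fold change was -0.32 (SE 0.08), and 83.1% of the 1340 genes called lower in RF had a larger change. Its call was the least stable: it was kept without RF library C and lost without any other single library, with log2 fold changes of -0.32, -0.37 and -0.29 without WF library A, B or C and -0.27 and -0.28 without RF library A or B.

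**Figure D2:**
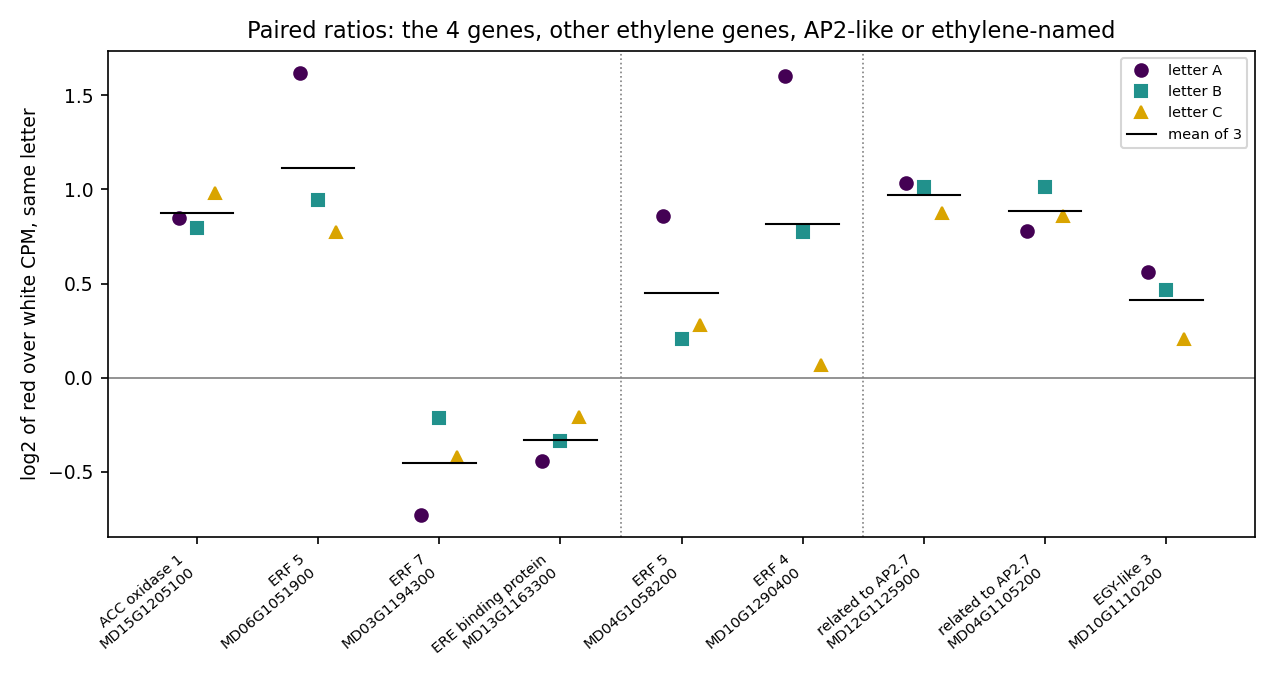
Log2 of the ratio of RF to WF CPM for each letter, with the mean of the 3 letters as a bar, for the 4 genes, 2 other ethylene genes and 3 genes named for ethylene or AP2. The 3 letters lie close together for ACC oxidase (SD 0.09 on the log2 scale) and far apart for ERF5 (SD 0.45) and ERF4 (SD 0.77).

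In all 4 genes RF library A was the RF library farthest from WF: it was the highest of the 3 for ACC oxidase and ERF5 and the lowest for ERF7 and EBP. RF library C was the nearest to WF for ERF5, ERF7 and EBP, while for ACC oxidase it was RF library B. Many other genes were like this. RF library A was the highest of the RF libraries for 56.6% of the 1740 genes called higher and the lowest for 46.3% of the 1340 genes called lower. It also had the highest summed levels of the epidermis and cuticle genes and of the xylem or phloem genes, at 67.8 and 1446 TPM, whereas that of the green tissue genes, 2924 TPM, lay between those of the other RF libraries. Whether these levels bear on the ethylene genes was not tested.

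How much a gene varied between replicates of the same flesh type was also described. A call weighs the difference between flesh types against an estimate of such spread. The spread is therefore not independent of how the 4 genes were picked. It was taken as edgeR's biological coefficient of variation (BCV) per gene, which is drawn toward the values of genes of like level. This is not the quasi-likelihood estimate that the calls use. Each BCV was compared with that of the 1000 tested genes nearest in level. The BCV of ACC oxidase was 10.3%, above that of 91.7% of the genes of like level, whose median was 7.37%. For ERF5 it was 17.1%, above 88.9% of the genes of like level, for ERF7 9.07%, above 93.6%, and for EBP 7.56%, above 87.2%. The second ERF5 (MD04G1058200) and ERF4 (MD10G1290400) were above 95.8% and 96.2%. All 6 ethylene genes thus varied more between replicates than most genes of their level, which is a description with no test.

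Pairing by letter split the genes in this respect. With the replicate block, which takes out what the RF and WF library of a letter share, the BCV of ACC oxidase was 5.05%, above that of 35.2% of genes of like level. That of ERF7 was still above 97.4%, that of ERF5 above 79.9% and that of EBP above 78.1%. For ACC oxidase the deviations of the RF and WF libraries from their group means had the same sign in 3 of 3 letters, although RF library C deviated by only -0.01 on the log2 scale. The signs were the same in 2 of 3 letters for ERF5 and for EBP, and in 1 of 3 for ERF7. Single libraries mattered for 3 of the 6 ethylene genes. Without RF library C, ERF5 and EBP lay above 51.0% and 38.5% of genes of like level, without RF library A ERF5 lay above 68.8%, and without it the second ERF5 lay above 6.1%.

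**Figure D3:**
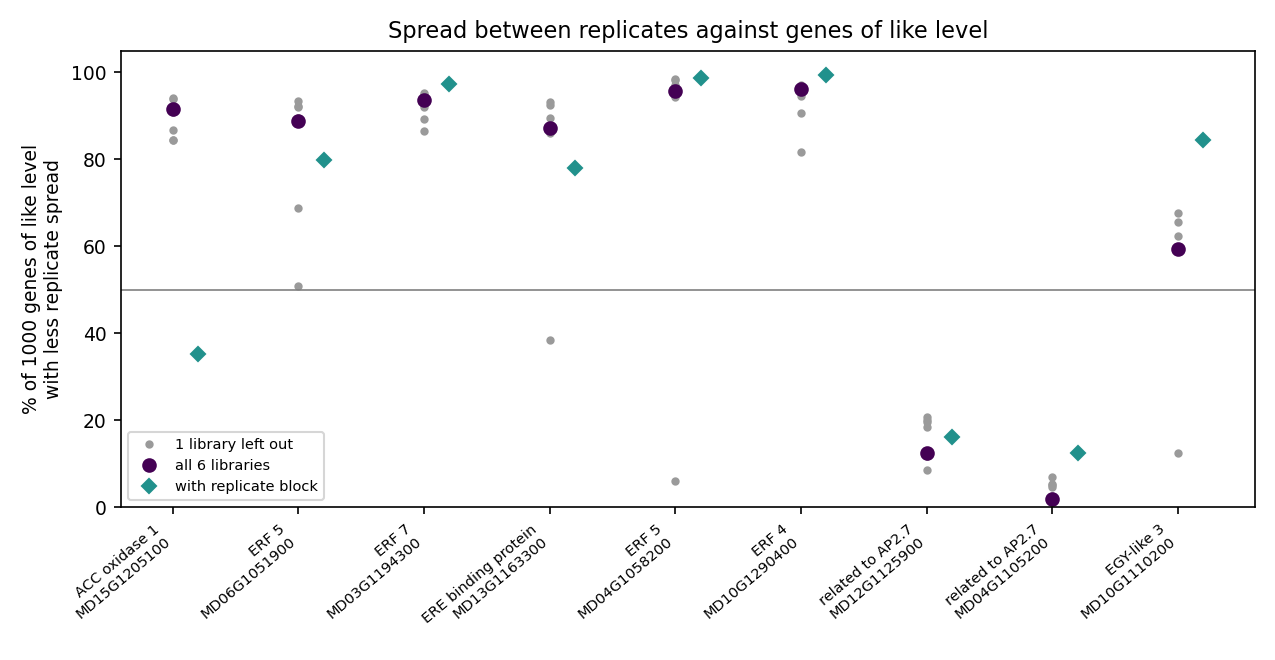
Share of the 1000 tested genes nearest in level whose BCV was lower than that of the gene named (vertical axis, percent), with all 6 libraries, with the replicate block, and with each library left out; the line marks 50%. With all libraries the 6 ethylene genes lie between 87.2% and 96.2% and both genes related to AP2.7 at 12.4% and 1.9%.

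The study's annotation describes 6 genes as ethylene genes among the 1998 descriptions at hand, the 4 genes above and 2 more. The descriptions were those of genes that the study called on these samples, so the list could hardly show ethylene genes that did not differ, and its direction is not independent evidence. Genes of ACC synthase, the ethylene receptors and the signal chain behind them were not among these descriptions and were not analysed here. Of the 6 genes, 2 were called higher and 2 lower, where 6.08% and 4.68% of all genes tested were, and the median log2 fold change was 0.62, against -0.0045 over all genes tested. With the replicate block 4 were called higher and 2 lower, where 10.4% and 8.39% of all genes tested were.

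The second ERF5 (MD04G1058200, chromosome 4) had 380, 389 and 390 estimated reads in WF libraries A, B and C and 661, 445 and 472 in RF. Its WF libraries were nearly alike, and RF library A stood above all others. The log2 fold change was 0.47 (SE 0.14, edgeR adjusted p = 0.0530), so the gene was not called. It passed with the replicate block (edgeR adjusted p = 0.00818), with DESeq2 (adjusted p = 0.0180), without a filter on low counts (edgeR adjusted p = 0.0475) and without RF library B (log2 fold change 0.58, edgeR adjusted p = 0.0335), while without RF library A the log2 fold change was 0.26. ERF4 (MD10G1290400, chromosome 10), named after an Arabidopsis repressor, had 44.6, 59.3 and 92 estimated reads in WF and 131, 100 and 96.3 in RF. The groups only just failed to overlap, and its paired ratio in CPM ran from 3.04 in A to 1.05 in C. The log2 fold change was 0.76 (SE 0.24, edgeR adjusted p = 0.0685), again not called. It passed with the replicate block (edgeR adjusted p = 0.0273), with DESeq2 (adjusted p = 0.0463) and without WF library C, the highest of its group (log2 fold change 1.09, edgeR adjusted p = 0.00674).

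Both genes described as ERF5 were higher in each RF library than in any WF library, which their choice from genes called by the study makes likely. The second ERF5 was the more abundant, at 5.77 to 7.44 times the TPM of MD06G1051900 in WF and 3.46 to 5.24 times in RF. The ratio of RF to WF in CPM was larger in the less abundant of the pair, in all 3 letters. Whether their fold changes differ beyond error was not tested.

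Among the 5 described ERF genes, EBP and ERF7 made up most of the signal. EBP held 59.9% to 62.4% of their summed TPM in WF and 56.7% to 60.6% in RF. ERF7 held 29.8% to 33.3% in WF and 25.6% to 29.96% in RF. The summed level was 295 to 338 TPM in WF and 250.5 to 294.2 TPM in RF, so the highest RF library, C, lay just below the lowest WF library, B. The 2 ERF5 genes and ERF4 held the rest, each with a larger share in every RF library than in any WF library. MD06G1051900 held 0.611% to 0.915% in WF and 1.22% to 2.59% in RF. The second ERF5 held 4.54% to 5.28% in WF and 6.41% to 10.8% in RF. For ERF4 the share was 1.11% to 2.17% in WF and 2.68% to 4.34% in RF. As these genes were chosen from those called by the study, nothing is read from this. The level of ERF7 was 9.07 to 11.98 times that of ACC oxidase in WF and 3.03 to 4.65 times in RF. ERF7 was picked knowing it was lower in RF and ACC oxidase knowing it was higher, so the fall of this ratio follows from the choice. The lower sum likewise follows from EBP and ERF7, and the level of all ERF genes was not measured.

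Of 3 genes whose descriptions name ethylene or the AP2 family, all 3 were called higher in RF, against 6.08% of all genes tested, a direction that the choice from genes called by the study largely fixes. MD12G1125900 and MD04G1105200 are described as related to AP2.7, the name of an AP2-type factor of Arabidopsis that acts in the timing of flowering. They had 71 to 80 and 31 to 34 estimated reads in WF and 142 to 157 and 56 to 62 in RF. Their log2 fold changes were 0.97 (SE 0.13) and 0.88 (SE 0.18), sizes near that of ACC oxidase, but their BCV lay above only 12.4% and 1.9% of genes of like level. MD04G1105200 was no longer called without WF library B, at a log2 fold change of 0.86. MD10G1110200, described as like a protein named for ethylene-dependent gravitropism and yellow-green plants, had 397 to 470 estimated reads in WF and 541 to 562 in RF (log2 fold change 0.41, SE 0.08). It was no longer called without WF library B or RF library A, at log2 fold changes of 0.37 and 0.38.

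**Figure D4:**
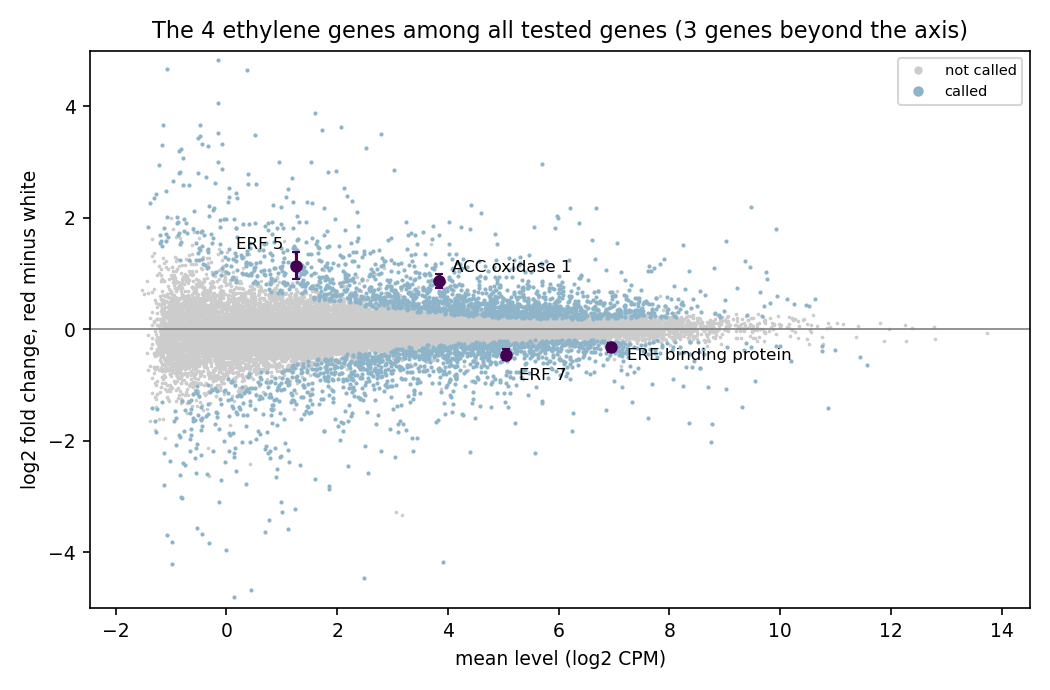
Log2 fold change (RF minus WF) of 28610 tested genes against their mean level in log2 CPM, with called genes in blue and the 4 ethylene genes with bars of 1 SE; 3 genes lie beyond the axis. ERF5 and ACC oxidase lie above 0 at 1.14 and 0.87, and ERF7 and EBP below it at -0.45 and -0.32.

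For each gene the 2 described genes with the most similar profile over the 6 libraries were looked up by the root mean square (RMS) difference of log2 CPM after each profile was centred on its mean, among the 1836 described genes in a pool of 22617 other tested genes with a mean of at least 50 counts. Of these described genes, ACC oxidase was closest to MD17G1098300 (SKU5 similar 5, of a family of cell-wall-linked proteins), at an RMS difference of 0.05, and to MD13G1025500 (a proline-rich family protein), at 0.07. MD17G1098300 had 12.3 ± 1.59 CPM in WF and 23.7 ± 3.19 CPM in RF (SD, n = 3). Of the described genes, ERF5 was closest to MD10G1283900 (an HXXXD-type acyl-transferase), at 0.15, and to MD14G1001200 (NAC domain containing protein 87, of a family of transcription factors), at 0.17. The RMS difference was thus larger for ERF5 than for ACC oxidase. However, ERF5 had fewer reads, and its profile varied more, with an RMS about its own mean of 0.61 against 0.47. MD17G1098300 and MD10G1283900 were each 1st in the whole pool.

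Of the described genes, ERF7 was closest to MD06G1009000 (catalase 2, which breaks down hydrogen peroxide), at an RMS difference of 0.07, and to MD01G1091000 (a protein kinase), at 0.08. In the whole pool these were 7th and 10th, and the nearest gene, with no description at hand, stood at 0.03. MD06G1009000 had 124 ± 10.2 CPM in WF and 91.1 ± 5.94 CPM in RF (SD, n = 3). Of the described genes, EBP was closest to MD00G1051500 (copper/zinc superoxide dismutase 1, which turns superoxide into hydrogen peroxide), at 0.04, and to MD06G1142100 (a protein of unknown function), at 0.05, which were 3rd and 8th in the whole pool. MD00G1051500 had 283 ± 15.9 CPM in WF and 232 ± 26.1 CPM in RF (SD, n = 3). ERF7 and EBP differed from each other by an RMS of 0.11, and ACC oxidase and ERF5 by 0.32. The profiles of ERF7 and EBP were themselves smaller, with an RMS about their own means of 0.27 and 0.20, against 0.47 and 0.61. The distances within the pairs are therefore not on the same footing. Descriptions were at hand for genes called by the study, so a partner that also differs between RF and WF is what such a search returns, and the likeness is a description.

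The genes next to each of the 4 on its chromosome, in the order of their IDs, were mostly not called. Of the 10 nearest tested genes, 5 on either side, the number called was 0 for ACC oxidase, ERF5 and ERF7 and 1, lower in RF, for EBP. Over all 40 neighbours this was 2.5%, against 10.8% of all genes tested.

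The estimated reads of ERF5 (MD06G1051900) were whole numbers, within 0.0005, in all 6 libraries. Those of ACC oxidase were not whole in 2, those of ERF7 in 3 and those of EBP in 6 libraries, so for these 3 genes some reads were divided with similar genes by the authors' quantification. How many reads were divided cannot be read from the files, and the level of these genes is uncertain to that extent.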

How the data were processed

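The authors sequenced poly(A) RNA with strands marked by dUTP as paired reads and deposited 1 table per library in the format of salmon, with an estimated count of reads and a TPM value per gene. The deposited TPM is scaled by effective length within a library. For the program's version, its settings and its use of strand, the entry is: not given in the sources used here. IDs have the form of the GDDH13 v1.1 annotation that the study names. None matched the RefSeq gene table at hand (0 matches), and coordinates were not used here. Descriptions came from the study's partial list of called genes.

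The estimated counts were rounded, and RF was compared with WF by edgeR 4.0.16 (quasi-likelihood test, TMM, standard expression filter, flesh type only, R 4.3.3), with two-sided p-values adjusted by Benjamini-Hochberg over 28610 genes. Depth was 25536185 to 26050906 estimated reads per library. On simulated counts for these libraries, 98.0% of genes changed by 1 on the log2 scale and 75.0% of those changed by 0.5 were recovered, where the changed genes had a mean of at least 100 counts, more than ERF5. They were drawn at random, whereas the BCV of the 4 genes lay above that of 87.2% to 93.6% of genes of like level. ERF7 and EBP also changed by less than 0.5, so these shares need not hold for the 4 genes. Each SE was the fold change divided by the root of its F statistic. CPM are counts relative to TMM-scaled library sizes, and TPM values were not tested.

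Same-letter libraries deviated together from their group means, with correlations across genes of 0.25, 0.23 and 0.23. Those between letters were 0 or lower. Centring on group means forces this on average once same-letter values are positive, so it adds no evidence. The treatment label says that RF and WF tissue was taken from shared fruits, without naming the letters. Letters were taken as pairs from the same-letter correlations and this label together. Alternatives were DESeq2 1.42.0, its size factors, a replicate block, other filters, effective-length offsets, paired TPM ratios and leaving out each library. The comparison of replicate spread and its alternatives were chosen after seeing the data. Genes were named by a fixed rule: the 4 genes, others described as ethylene or AP2-like, and the 2 described genes of most similar profile for each. The genes and lists were chosen with earlier results of these data known.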

Additional observations from a re-analysis of the deposited data

How the results depend on the processing

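The direction of all 4 genes was the same under each of the 12 other tested settings and in the paired TPM ratios. Their log2 fold changes ran from 0.77 to 1.00 for ACC oxidase (MD15G1205100), 0.92 to 1.34 for ERF5 (MD06G1051900), -0.55 to -0.36 for ERF7 (MD03G1194300) and -0.43 to -0.27 for EBP (MD13G1163300). ACC oxidase was called in 12 of 12 settings, ERF5 and ERF7 in 11 and EBP in 7, and all lost calls were in fits without 1 library. Over all genes, the replicate block gave 2981 genes higher and 2401 lower in RF. Leaving out 1 library gave 939 to 1624 higher and 666 to 1523 lower. The counts fell most without WF library B (939 and 705) and RF library A (941 and 666), and that of lower genes also without RF library C (807). The cause was not tested. DESeq2 gave 1565 higher and 1162 lower. The replicate block changed the calls of the second ERF5 (MD04G1058200) and ERF4 (MD10G1290400) and no other call of the genes in the ethylene and AP2-like lists. Among the 4 genes, ERF5 had the fewest estimated reads, 34 to 44 in WF, which limits its precision.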
